A study of Mus musculus with 12 samples.

Results

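The H3K4me3 and H3K4me1 landscapes of wild-type (WT) mouse embryonic fibroblasts were compared from 4 of the 12 Cut & Run libraries of the series, 2 per mark. A region of a mark was kept when both of its WT libraries had a peak there, on the autosomes. This left 14192 H3K4me3 regions of 17167 merged from the pair of libraries (82.7%) and 40316 H3K4me1 regions of 73446 (54.9%). The remaining 8 libraries, of MLL4 in WT cells and of all 3 antibodies in Fbxw7 knockout cells, did not enter these comparisons.

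Cut & Run tethers a nuclease to an antibody bound on chromatin, so that DNA around the mark is cut free and sequenced. The fibroblasts, connective tissue cells taken from mouse embryos and grown in DMEM with serum and non-essential amino acids, carry no further allele or agent that the labels name. The labels do not say whether the libraries of a mark came from separate cultures or embryos, so any p-value rests on a spread between libraries that could be technical. After duplicate filtering, WT H3K4me3 replicates 1 and 2 held 11319701 and 6185767 fragments, and WT H3K4me1 replicates 1 and 2 held 12607690 and 11604131. With 2 libraries against 2, the exact two-sided permutation test cannot go below 0.333, so no difference between the marks can pass the usual threshold. Genes with no listed start were scored at both gene ends in place of a start. Of 17 genes that define fibroblasts, such as Col1a1, Thy1, Twist1 and Vim, 14 carried H3K4me3 within 1 kb of a start. With a window of 2 kb 16 did. Of all autosomal protein-coding genes 55.4% and 56.5% did, in that order. Among the 17 genes the exception at 2 kb was S100a4, which had an H3K4me3 peak in replicate 1 alone. Its −log10 q, the authors' significance of a peak over local background with a q cutoff of 0.01, was 5.69. Pairs of values below are this −log10 q of the strongest peak in a gene's windows in replicates 1 and 2. Fn1 and Pdgfra, the other genes without it at 1 kb, had their nearest held H3K4me3 region 1149 and 1805 bp from a scored position. Fn1 also had an H3K4me3 peak of 18.2 in its windows in replicate 1 alone.

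H3K4me1 and H3K4me3 are methylation states of the same lysine of histone H3, so a single histone tail carries one or the other. H3K4me3 is known for its place at the starts of active or poised genes, where CXXC-domain proteins of several H3K4 methyltransferase complexes bind unmethylated CpG-rich DNA. H3K4me1 is known for enhancers, where MLL3 and MLL4 place it, and for the shoulders of active promoters.

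The sequences below come from the starts of genes in the 3 classes described further on and show how the DNA under each class differs in CpG content. For each class they give the gene with a listed start that ranked first among all genes and the first among the fibroblast lists. Each run holds the 250 bases before the start, 5′ to 3′ on the gene's strand, from RefSeq with the build GRCm38.p6, whose coordinates are those of mm10. Capitals mark every CG.
Mau2 (chr8:70042735-70042984, minus strand): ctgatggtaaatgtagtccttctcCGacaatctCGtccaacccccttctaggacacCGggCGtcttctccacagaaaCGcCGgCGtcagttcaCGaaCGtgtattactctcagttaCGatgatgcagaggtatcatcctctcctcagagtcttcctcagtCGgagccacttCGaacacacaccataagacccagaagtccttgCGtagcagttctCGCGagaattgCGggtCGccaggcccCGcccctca
Itga11 (chr9:62677605-62677854, plus strand): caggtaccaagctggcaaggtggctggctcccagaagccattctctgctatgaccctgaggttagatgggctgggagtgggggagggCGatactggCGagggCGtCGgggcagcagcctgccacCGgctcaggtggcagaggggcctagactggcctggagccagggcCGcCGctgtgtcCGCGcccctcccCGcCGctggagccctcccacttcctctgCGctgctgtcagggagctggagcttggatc
Hjurp (chr1:88277580-88277829, minus strand): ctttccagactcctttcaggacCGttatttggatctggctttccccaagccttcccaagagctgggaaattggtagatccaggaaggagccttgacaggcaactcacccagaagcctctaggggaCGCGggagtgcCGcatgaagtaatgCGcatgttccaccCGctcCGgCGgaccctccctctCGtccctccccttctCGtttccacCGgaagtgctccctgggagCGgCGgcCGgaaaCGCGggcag
Col6a2 (chr10:76623405-76623654, minus strand): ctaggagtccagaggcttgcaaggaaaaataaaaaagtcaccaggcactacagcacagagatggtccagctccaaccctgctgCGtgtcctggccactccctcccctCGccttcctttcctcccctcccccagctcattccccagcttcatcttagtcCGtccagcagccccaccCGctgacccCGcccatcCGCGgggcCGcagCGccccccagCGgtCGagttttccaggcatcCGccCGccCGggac
Rassf5 (chr1:131200186-131200435, minus strand): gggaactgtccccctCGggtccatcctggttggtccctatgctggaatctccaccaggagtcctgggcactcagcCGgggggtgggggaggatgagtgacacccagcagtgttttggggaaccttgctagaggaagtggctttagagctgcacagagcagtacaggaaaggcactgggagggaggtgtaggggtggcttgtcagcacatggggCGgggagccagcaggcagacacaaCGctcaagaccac
Ddr2 (chr1:170088945-170089194, minus strand): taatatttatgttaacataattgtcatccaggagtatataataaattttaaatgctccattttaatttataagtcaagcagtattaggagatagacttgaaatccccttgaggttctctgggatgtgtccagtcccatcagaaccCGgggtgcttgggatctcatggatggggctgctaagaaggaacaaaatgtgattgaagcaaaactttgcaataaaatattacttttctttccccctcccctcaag

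Mau2, a subunit of the cohesin loader, had H3K4me3 peaks of −log10 q 140 and 62.5 and no H3K4me1 peak in its window, and its run holds 18 CG. The integrin Itga11, a collagen receptor of fibroblasts, had H3K4me3 at 92.3 and 40.7 with no H3K4me1 peak and 12 CG in its run. Hjurp, the chaperone of the centromeric histone CENP-A, carried both marks (H3K4me3 190 and 97.4, H3K4me1 17.5 and 11.5), and its run holds 16 CG and an ETS site, CCGGAAGT. The collagen VI chain Col6a2 carried H3K4me3 at 65.3 and 25.6 with H3K4me1 at 9.89 and 8.44 over 14 CG. The Ras effector Rassf5 (H3K4me1 27.6 and 15.5) has 4 CG in its run, and the collagen receptor Ddr2 (H3K4me1 4.42 and 5.45) has 1 CG and a TATAAA on the opposite strand. Neither had an H3K4me3 peak in its window in either library, though Ddr2 carried a held H3K4me3 region at its 5′ gene end, 19508 bp from this start. The H3K4me3-bearing runs hold 12 to 18 CG and the H3K4me1-only runs 1 to 4.

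H3K4me1 was spread over many more places than H3K4me3. H3K4me3 replicates 1 and 2 had 16877 and 15552 autosomal peaks, and H3K4me1 replicates 1 and 2 had 60817 and 55567. The groups did not overlap, and their means were 16214.5 ± 937 and 58192 ± 3712 (SD, n = 2 each), 3.59-fold more for H3K4me1 (exact permutation p = 0.333). Peaks covered 21.3 and 17.1 Mb for H3K4me3 and 40.6 and 36.2 Mb for H3K4me1, a log2 ratio of H3K4me3 to H3K4me1 of −1.01 (p = 0.333, exact permutation). Both directions depended on the q cutoff. With peaks of −log10 q of at least 10 the log2 ratio was 0.79 for peaks and 1.27 for bases, and 3126 H3K4me1 regions were held by both libraries.

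H3K4me3 peaks lay mostly at gene starts and H3K4me1 peaks mostly away from them. A start window lay within 1 kb of a listed start of a protein-coding gene. For the 4208 genes without a listed start it lay within 1 kb of either gene end. A peak was assigned to a start window when any part of it lay there, then to the inside of a gene, and otherwise to intergenic sequence. Of H3K4me3 peaks, 71.0% and 76.2% in replicates 1 and 2 touched a start window, against 4.75% and 4.47% of H3K4me1 peaks. The means were 73.6 ± 3.68% and 4.61 ± 0.192% (SD, n = 2 each), a difference of 69.0 percentage points (exact permutation p = 0.333). Inside genes beyond the windows lay 15.1% and 13.2% of H3K4me3 peaks and 48.4% and 48.4% of H3K4me1 peaks, and intergenic sequence held 13.9% and 10.6% against 46.9% and 47.1%. H3K4me1 peaks were thus shared almost evenly between gene bodies and intergenic DNA. The direction of each of these 3 differences held in every alternative tried, at −log10 q of at least 10 and with lists of equal length included. With genes of a listed start only, the difference at starts was 56.9 percentage points.

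**Figure D1:**
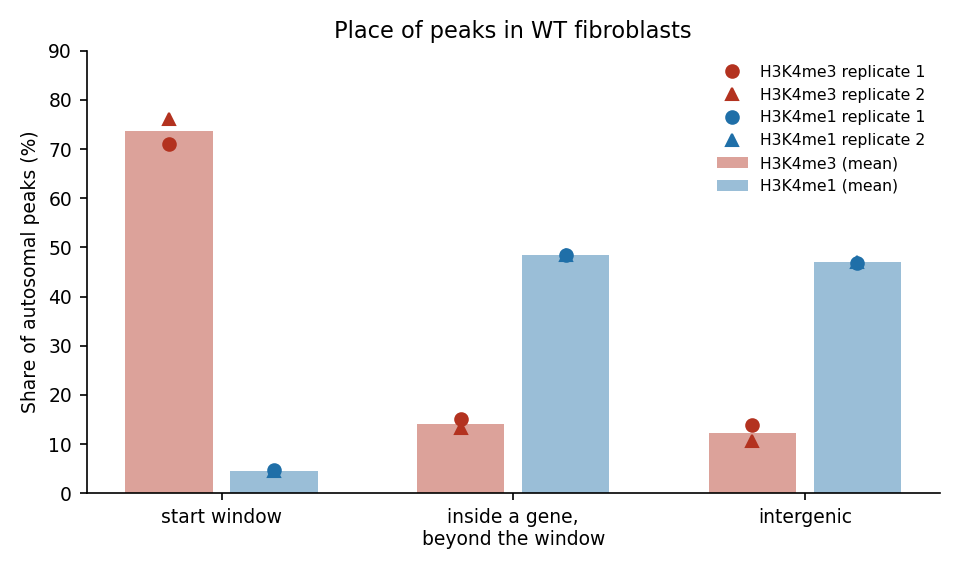
Share of autosomal peaks (%) in the start window, inside a gene beyond that window, and in intergenic sequence. The start window lies within 1 kb of a listed protein-coding start, or of either end of a gene without one. Bars are means of 2 libraries and points are single libraries, and the H3K4me3 points at starts (71.0% and 76.2%) stand above the H3K4me1 points (4.75% and 4.47%).

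Regions held by both libraries showed the same places. Of the 14192 H3K4me3 regions, 11163 (78.7%) touched a start window, 1583 (11.2%) lay inside a gene and 1446 (10.2%) were intergenic. Of the 40316 H3K4me1 regions, 1543 (3.83%) touched a start window, 19309 (47.9%) lay inside a gene and 19464 (48.3%) were intergenic. Distance was taken for the 38594 H3K4me1 and 13754 H3K4me3 regions outside chromosome 18, for which the table lists no start. Of these, the median H3K4me1 region was 63.9 kb from the nearest listed start, and 15.9% of H3K4me1 regions were within 10 kb of one, against 73.3% of H3K4me3 regions. Within 100 kb were 60.4% of H3K4me1 and 90.5% of H3K4me3 regions, and within 1 kb 2.91% and 66.4%. Start windows also take in ends of genes without a listed start, so these shares are not those of the windows. Per chromosome, the held H3K4me1 regions outnumbered the H3K4me3 regions by 1.77 times on chromosome 11 and 1.90 times on chromosome 7, the lowest, and by 3.86 times on chromosome 1 and 3.93 times on chromosome 18, the highest.

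H3K4me3 peaks were longer, stronger and further apart. Their median length was 1222 and 1060 bp in replicates 1 and 2, against 573 and 561 bp for H3K4me1, a 2.01-fold difference (exact permutation p = 0.333). The median fold enrichment over local background, the authors' own value per peak, was 6.98 and 6.51 for H3K4me3 and 4.42 and 4.43 for H3K4me1. The median −log10 q, which also depends on depth, was 34.0 and 17.8 against 5.92 and 5.86. H3K4me3 replicate 2 had fewer fragments than either H3K4me1 library and a higher median −log10 q than both. The part of depth in these values was not tested. The median gap to the next peak of the same library was 43147.5 and 44357 bp for H3K4me3 and 14872.5 and 15994.5 bp for H3K4me1 (2.84-fold, p = 0.333, exact permutation). With lists of equal length the gap ratio reversed (log2 −0.42), while the length ratio kept its direction in every alternative tried but was smaller with lists of equal length (log2 0.43) and at −log10 q of at least 10 (log2 0.49), against 1.01.

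**Figure D2:**
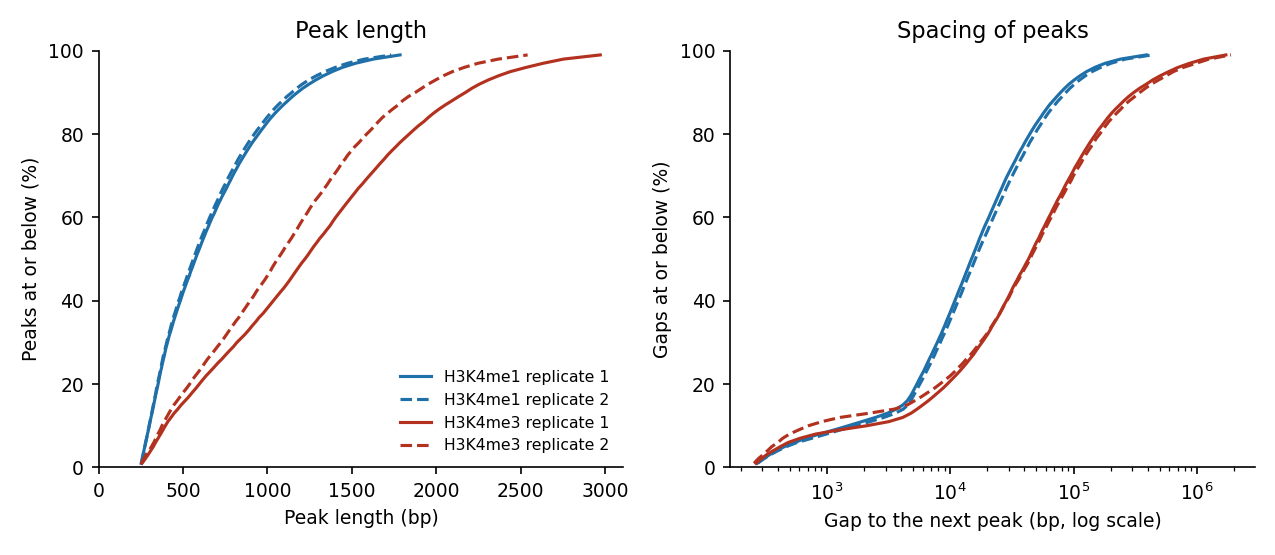
Cumulative share (%) of autosomal peaks by length in bp (left) and of gaps to the next peak of the same library by size in bp on a log scale (right), up to the 99th percentile, 1 line per library. The H3K4me1 lines lie to the left of the H3K4me3 lines over most of both ranges, with medians of 573 and 561 bp against 1222 and 1060 bp.

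Among held regions the H3K4me3 median was 1399 bp and the H3K4me1 median 909 bp. Regions above 2 kb numbered 2652 for H3K4me3 (18.7%) and 641 for H3K4me1 (1.59%), and above 3 kb 168 and 5. H3K4me3 regions were longest at starts, with a median of 1511 bp against 1018 bp inside genes and 847.5 bp in intergenic DNA. Their median pileup, the number of fragments over the summit, had the same order in both libraries (90, 47 and 35 in replicate 1 and 44, 24 and 18 in replicate 2). H3K4me1 regions had the reverse order of length, 807 bp at starts, 908 bp inside genes and 919 bp in intergenic DNA.

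The 5 longest H3K4me3 regions all touched a start window. The longest was at Ext1, which encodes a heparan sulfate polymerase (chromosome 15, 53341832 to 53345900, 4069 bp, −log10 q 18.5 and 17.3). It was followed by regions at the receptor tyrosine phosphatase Ptprg (4028 bp), the homeobox factor Cux1 (3943 bp), the eIF2-alpha phosphatase subunit Ppp1r15b (3908 bp) and the collagen I chain Col1a2 (3905 bp). None of the 5 longest H3K4me1 regions touched a start window. The longest was intergenic (chromosome 8, 44092690 to 44096198, 3509 bp, −log10 q 5.93 and 7.12). The next lay inside Fyb, an adapter of immune cell adhesion signalling (3192 bp), inside the SNARE gene Snap47 (3044 bp) and in intergenic DNA of chromosomes 6 (3044 bp) and 9 (3005 bp).

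The marks shared little sequence. Held regions of both marks overlapped over 0.692 Mb, which was 3.36% of the bases under H3K4me3 and 1.77% of those under H3K4me1. The held regions covered 20.6 Mb for H3K4me3 and 39.1 Mb for H3K4me1. Whether this overlap is more or less than regions placed at random would share was not tested. At least 1 bp was shared by 1633 H3K4me3 regions (11.5%) and 1657 H3K4me1 regions (4.11%). A further 2017 H3K4me3 regions (14.2%) and 2062 H3K4me1 regions (5.11%) lay within 2 kb of the other mark without touching it. Apart from the other mark by more than 2 kb were 10542 H3K4me3 regions (74.3%) and 36597 H3K4me1 regions (90.8%).

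Counted per library, 14.4% and 9.93% of H3K4me3 peaks overlapped a held H3K4me1 region, against 4.71% and 4.44% of H3K4me1 peaks that overlapped a held H3K4me3 region. The difference of means was 7.58 percentage points (exact permutation p = 0.333). Peaks near the other mark without overlap were 13.8% and 15.3% for H3K4me3 and 7.03% and 6.94% for H3K4me1, a difference of 7.57 points (p = 0.333, exact permutation). Both shares depend on how many regions the other mark has. With lists of equal length they reversed, to −0.77 and −1.74 points. With all peaks of H3K4me1 replicate 1 as the regions of that mark, replicate 2 left out, they were 14.0 and 19.5 points.

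Where the marks did overlap, the form of the overlap differed by place. At starts, 884 of the H3K4me3 regions (7.92%) touched H3K4me1, and H3K4me1 covered the centre of 125 of those 884 (14.1%). Inside genes 374 (23.6%) touched H3K4me1 and in 238 of them (63.6%) the centre was covered. In intergenic DNA 375 (25.9%) touched it and in 261 (69.6%) the centre was covered. The median share of an overlapped H3K4me3 region that lay under H3K4me1 was 19.2% at starts, 71.2% inside genes and 80.7% in intergenic DNA. H3K4me1 was confined to the outer 200 bp of the H3K4me3 region in 257 of the 884 at starts (29.1%), and in 16.8% of those inside genes and 16.8% of those in intergenic DNA.

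Around gene starts the marks formed a centre and shoulders. The share of positions under a peak was taken in 50 bp steps around 11018 listed starts with a held H3K4me3 region in their window, oriented by strand. H3K4me3 covered the most starts just inside the gene, 91.4% at 200 bp in replicate 1 and 85.2% at 300 bp in replicate 2. At 1 kb upstream it covered 18.8% and 14.8%, and at 1 kb downstream 57.7% and 49.2%. H3K4me1 covered 1.60% and 1.46% of the same starts at the start itself. Downstream it reached its highest share, 6.97% and 5.84%, at 1650 bp in both libraries. Upstream the highest share was 4.79% at 350 bp and 3.86% at 450 bp, closer to the start and lower. At 9067 listed starts without H3K4me3 there were no such shoulders, and H3K4me1 peaked at 2.22% and 1.95%, 300 bp upstream. The windows of 1 kb used to class genes hold the highest upstream share and not the highest downstream share. At their outer limits the H3K4me1 shares were alike, 3.84% and 3.15% upstream and 4.05% and 3.16% downstream.

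**Figure D3:**
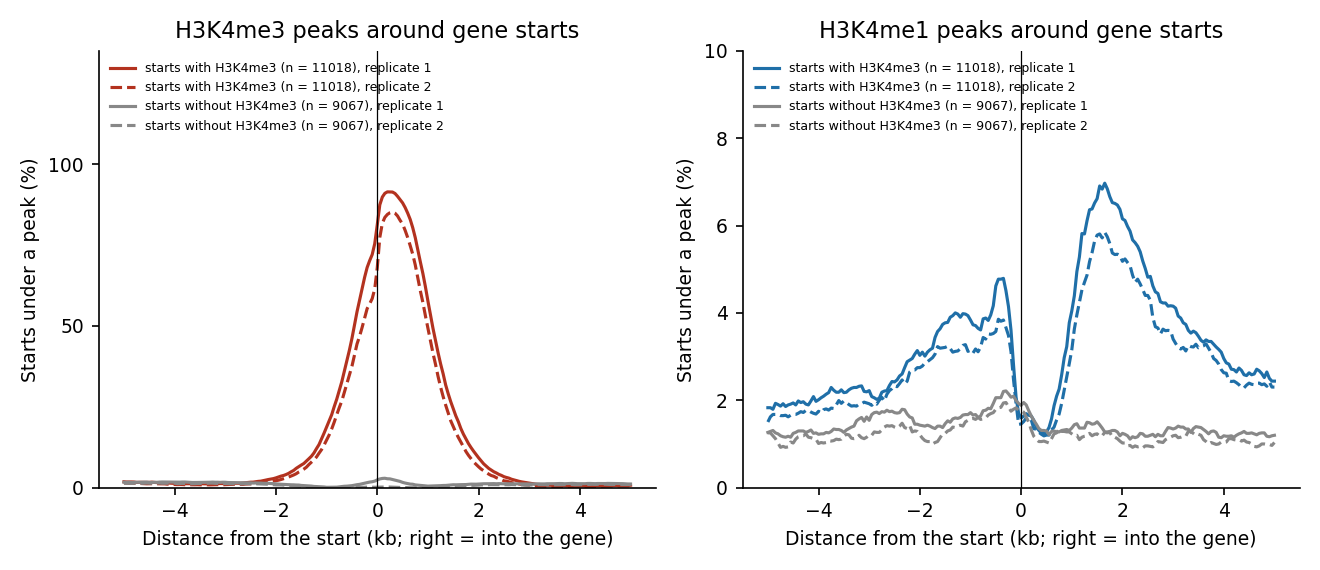
Share of listed gene starts (%) under an H3K4me3 peak (left) or an H3K4me1 peak (right) by distance from the start in kb, oriented so that positive values run into the gene, for starts with and without a held H3K4me3 region, 1 line per library. H3K4me1 dips to 1.24% and 1.19% at 400 and 450 bp inside starts with H3K4me3 and is highest at 1650 bp, and the vertical scales of the panels differ.

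Measured from the edges of the H3K4me3 regions, H3K4me1 was highest 300 bp outside for regions in start windows (7.03% and 5.74% of edges). It was 1.47% and 1.32% at 500 bp inward, and 1.79% and 1.61% at 5 kb outward. For regions away from starts the highest share lay within the H3K4me3 region, 150 bp inward from its edge. It was 18.2% and 15.9% for regions inside genes and 22.0% and 19.5% for intergenic ones, against 2.59% and 1.69% at 5 kb from intergenic edges.

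**Figure D4:**
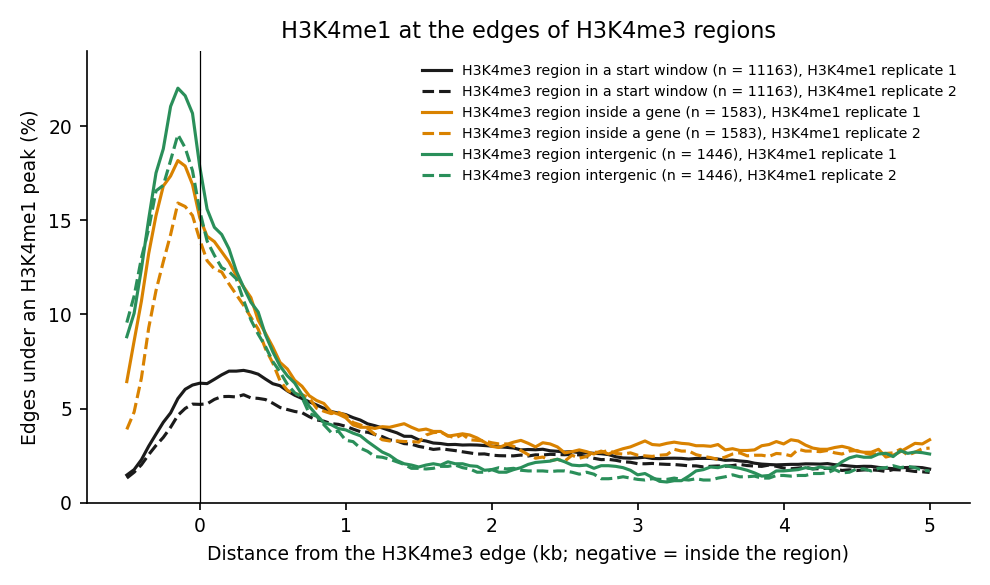
Share of H3K4me3 region edges (%) under an H3K4me1 peak by distance from the edge in kb, negative values inside the region, by place of the H3K4me3 region, 1 line per H3K4me1 library. Lines for start regions are highest outside the edge (7.03% and 5.74% at 300 bp), and those for the other places are highest inside it.

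Most H3K4me3 regions had H3K4me1 on neither side. Within 2 kb beyond their edges, 345 regions (2.43%) had H3K4me1 on both sides, 3192 (22.5%) on a single side and 10655 (75.1%) on neither. Of start regions 69 (0.618%) had it on both sides, against 124 (7.83%) inside genes and 152 (10.5%) in intergenic DNA. The count for both sides was 558 when H3K4me3 replicate 1 was left out, 948 without H3K4me3 replicate 2 and 602 without H3K4me1 replicate 2. Among 8239 H3K4me3 regions with listed starts of a single strand within 1 kb, H3K4me1 lay downstream of 1164 (14.1%) and upstream of 738 (8.96%). Longer start regions more often had a flank of H3K4me1, 15.8%, 19.2%, 23.0% and 30.5% in 4 equal groups from the shortest to the longest, and overlap itself was 6.27% in the shortest and 7.99% in the longest group.

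Genes were then classed by the held regions in their start windows. Of 20665 autosomal protein-coding genes, 10359 (50.1%) had H3K4me3 only, 1092 (5.28%) both marks, 473 (2.29%) H3K4me1 only and 8741 (42.3%) neither. H3K4me3 was thus present at 11451 genes (55.4%) and H3K4me1 at 1565 (7.57%). Of genes with H3K4me3 9.54% also had H3K4me1, and of genes without it 5.13% did. Of genes with H3K4me1, 69.8% also had H3K4me3. At −log10 q of at least 10 the first pair of shares reversed, to 0.289% and 0.437%, and with lists of equal length to 0.815% and 1.18%, and 46.0% of genes with H3K4me1 then also had H3K4me3. In 922 of the 1092 genes with both marks (84.4%) a single window held both, and in the rest the marks lay at different starts or gene ends. The count of genes with both marks moved with the setting, from 30 at −log10 q of at least 10 to 2234 with a window of 2 kb, and was 1836 and 2147 when H3K4me1 replicate 1 or 2 was left out and the regions of the remaining library were taken.

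The classes differed in the DNA of their starts. In the 300 bases from 250 before to 50 after the start, the median number of CG was 23 at 10176 starts with H3K4me3 only, 18 at 842 with both marks, 4 at 415 with H3K4me1 only and 4 at 8652 with neither. The ratio of observed to expected CG was 0.799, 0.697, 0.244 and 0.222 in the same order. Starts with H3K4me1 only thus resembled those with neither mark in their CG content. When the 20085 listed starts were split into 5 equal groups by CG number, H3K4me3 was found at 4.01%, 21.3%, 71.5%, 88.2% and 89.3% from the poorest to the richest group. H3K4me1 showed no such gradient, at 4.41%, 8.56%, 7.12%, 6.02% and 5.18%, and H3K4me1 without H3K4me3 was most common in group 2 (5.10%).

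Sequence motifs were counted in the same windows on both strands. The GC box GGGCGG was in 69.0% of starts with H3K4me3 only, 62.9% with both, 20.7% with H3K4me1 only and 20.9% with neither, against 47.0% of all listed starts. TATAAA ran the other way, 5.87%, 7.72%, 18.8% and 21.0% (12.7% of all). The ETS site CCGGAAGT was in 9.25%, 5.58%, 0.482% and 0.809% (5.28% of all), and the CRE TGACGTCA, which holds a CG as the GC box and the ETS site do, in 3.51%, 3.68%, 0.723% and 0.821% (2.30% of all). The E-box CACGTG was in 10.6%, 7.72%, 4.82% and 4.89% (7.89% of all), and CCAAT was in 38.2%, 39.2%, 32.5% and 38.2% (38.1% of all). The AP-1 site TGACTCA, which has no CG, was in 2.95%, 4.39%, 12.8% and 6.39% (4.70% of all). H3K4me1-only starts were the class with the highest share of it. These shares are descriptions of letters in a window, not of bound factors.

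For the AP-1 site, the 3 best ranked H3K4me1-only genes that hold it are shown, with the 7 bases of the site in capitals and 30 bases on either side, from the same RefSeq table.
Hrh1 (chr6:114458276-114458342, plus strand): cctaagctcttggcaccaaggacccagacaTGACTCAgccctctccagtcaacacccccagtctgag
Gm14137 (chr2:119174419-119174485, plus strand): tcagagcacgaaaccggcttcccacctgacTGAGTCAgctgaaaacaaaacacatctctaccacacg
Ctla2b (chr13:60897554-60897620, minus strand): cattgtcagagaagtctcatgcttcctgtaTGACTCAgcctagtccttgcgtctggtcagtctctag

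The histamine receptor gene Hrh1 has the site 216 bases before its start, with H3K4me1 peaks of −log10 q 14.3 and 14.1 among its windows. The predicted gene Gm14137 has it 60 bases before its start (H3K4me1 15.0 and 12.3), and the protease inhibitor gene Ctla2b 143 bases before (12.6 and 11.3). No H3K4me3 peak was called at any of the 3 in either library.

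The strongest members of each class were ranked by the lower of their percentiles of −log10 q. Pafah1b3, a catalytic subunit of a platelet-activating factor acetylhydrolase (chromosome 7, 25295048 to 25297986), led the H3K4me3-only genes with 159 and 80.6. It had an H3K4me1 peak of 4.52 in replicate 2 alone. Mau2 came next, followed by Adck2, a mitochondrial kinase-like protein (129 and 64.1), Akap8l, a nuclear anchoring protein (127 and 63.9), Ttll12, of the tubulin tyrosine ligase family (126 and 64.3), and the dynactin subunit Dctn6 (147 and 61.3). Dctn6 had an H3K4me1 peak of 3.48 in replicate 1 alone. The H3K4me3 pileup at these genes ran from 174 to 238 in replicate 1 and from 90 to 110 in replicate 2, against library medians of 74 and 39.

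For genes with both marks the H3K4me3 pair is given before the H3K4me1 pair. High in this class were the transcriptional regulator Zfp703 (H3K4me3 94.2 and 37.3, H3K4me1 17.5 and 18.8), Hjurp, the vesicular monoamine transporter Slc18a1 (70.0 and 33.6, 11.2 and 11.0), the prefoldin subunit Pfdn1 (83.4 and 33.1, 10.2 and 14.7) and the doublecortin-like kinase Dclk1 (63.2 and 31.3, 10.8 and 13.5). In Zfp703, Slc18a1 and Pfdn1, none of which has a listed start, the marks lay in the windows of different gene ends. In Hjurp they overlapped at a single start, with H3K4me3 from 176 bp upstream to 1287 bp downstream and H3K4me1 from 689 to 1882 bp downstream. In Dclk1 they overlapped at each of a pair of starts, 55242364 and 55461728 on chromosome 3. Its strongest peaks, whose values are given, lay at different starts, H3K4me3 at the first and H3K4me1 at the second. That H3K4me1 region (55462412 to 55463528) did not overlap H3K4me3.

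Genes with H3K4me1 only were led by Pdgfb, the B chain of the platelet-derived growth factor (chromosome 15, 79995865 to 80024614), with H3K4me1 at 17.8 and 23.6. Pdgfb signals through Pdgfrb, whose own window carried both marks. Rassf5 (27.6 and 15.5), Ms4a15, of a family of membrane-spanning proteins (17.8 and 14.2), Hrh1 (14.3 and 14.1), Baalc (16.9 and 13.6) and Speer3 (14.2 and 17.5) followed. Baalc, scored at both gene ends, had an H3K4me3 peak of 2.46 in replicate 1, at the opposite end from its strongest H3K4me1 peaks. Speer3 belongs to a family of near-identical copies, among which the fragments may have been split, so its value is uncertain. At Hrh1 the strongest H3K4me1 peaks of the libraries lay at different starts. Of the 473 genes with H3K4me1 only, 95 had a held H3K4me3 region elsewhere on the gene or within 1 kb of it.

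The matrix genes encode the collagens and other extracellular proteins that fibroblasts secrete. Of 30 on autosomes, 15 had H3K4me3 only, 10 had both, 1 had H3K4me1 only and 4 had neither, against 50.1%, 5.28%, 2.29% and 42.3% of all genes. Among the 25 with H3K4me3, 40.0% also had H3K4me1, against 9.54% of all genes with H3K4me3. The shares were 4.55% against 0.289% at −log10 q of at least 10 (1 matrix gene), 3 of 25 against 0.815% with lists of equal length and 35.3% against 8.86% with genes of a listed start alone (6 genes). They were 44.0% against 16.0% without H3K4me1 replicate 1, 48.0% against 18.7% without H3K4me1 replicate 2 and 57.1% against 19.1% with a window of 2 kb, where the ratio of the shares was smaller. No test of this or the other lists was made.

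The fibrillar collagen chains of the group were Col1a2 (H3K4me3 14.7 and 7.54, H3K4me1 7.39 and 2.41), Col5a1 (41.5 and 16.1, 16.7 and 14.4) and Col5a2 (45.8 and 26.4, 8.40 and 6.37). The 3 chains of the microfibrillar collagen VI on the list carried both marks: Col6a1 (67.2 and 28.1, 7.02 and 5.78), Col6a2 and Col6a3 (55.2 and 37.4, 4.59 and 4.07). The small proteoglycans Dcn (31.2 and 15.8, 8.09 and 10.3) and Lum (17.1 and 7.99, 4.48 and 5.07), the matricellular protein Postn (29.1 and 15.5, 8.27 and 8.10) and the gelatinase Mmp2 completed the 10. Mmp2 had H3K4me3 at 48.5 and 20.6 and an H3K4me1 peak of 3.79 in the window in replicate 1. It was classed by a held region that reaches into the window. In Postn the marks lay in the windows of different starts.

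At Col1a2 H3K4me3 ran from 113 to 4017 bp downstream of the start and H3K4me1 from 1382 to 918 bp upstream. At Col6a1 they ran from 20 to 1740 bp downstream and from 1101 to 121 bp upstream. At Col5a1 they overlapped, with H3K4me3 from 673 bp upstream to 2512 bp downstream and H3K4me1 from 2014 to 488 bp upstream. Across the 4 fibroblast lists, 12 listed starts of 10 genes held both marks, and at all 12 the centre of the H3K4me1 region was upstream of the start. Over all 842 listed starts with both marks it was upstream at 507 (60.2%), downstream at 330 (39.2%) and on both sides at 5. Genes scored at gene ends were left out of these counts. Among those of the 4 lists with both marks in a single window, Lum had H3K4me1 from 165 to 1458 bp inside the gene. Col5a2, Dcn, Mmp2, Osr2 and Pdgfrb had its centre outside the gene. The upstream position was noted after the values were seen.

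Matrix genes with H3K4me3 only included Col1a1 (27.7 and 13.2), Col3a1 (29.1 and 18.1), the fibrillin Fbn1 (43.1 and 19.8), the collagen-binding protein Sparc (32.3 and 15.4) and the metalloproteinase inhibitor Timp3 (55.8 and 16.1). Col1a1 had an H3K4me1 peak of 5.09 in replicate 2 alone. The elastin gene Eln was the member with H3K4me1 only (5.76 and 7.01), and its nearest held H3K4me3 region was 13279 bp away. The members with neither were Fn1, Lox, Ccn1 and Mfap5. In replicate 1 alone, H3K4me3 peaks were called in the windows of Fn1 (18.2), Mfap5 (14.7) and Lox (6.31). Mfap5 also had an H3K4me1 peak of 3.39 in replicate 1 alone. Fn1, Lox and Ccn1 had a held H3K4me3 region 1149, 1079 and 1293 bp from a scored position, just past the window, and with a window of 2 kb 28 of the 30 genes carried H3K4me3.

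**Figure D5:**
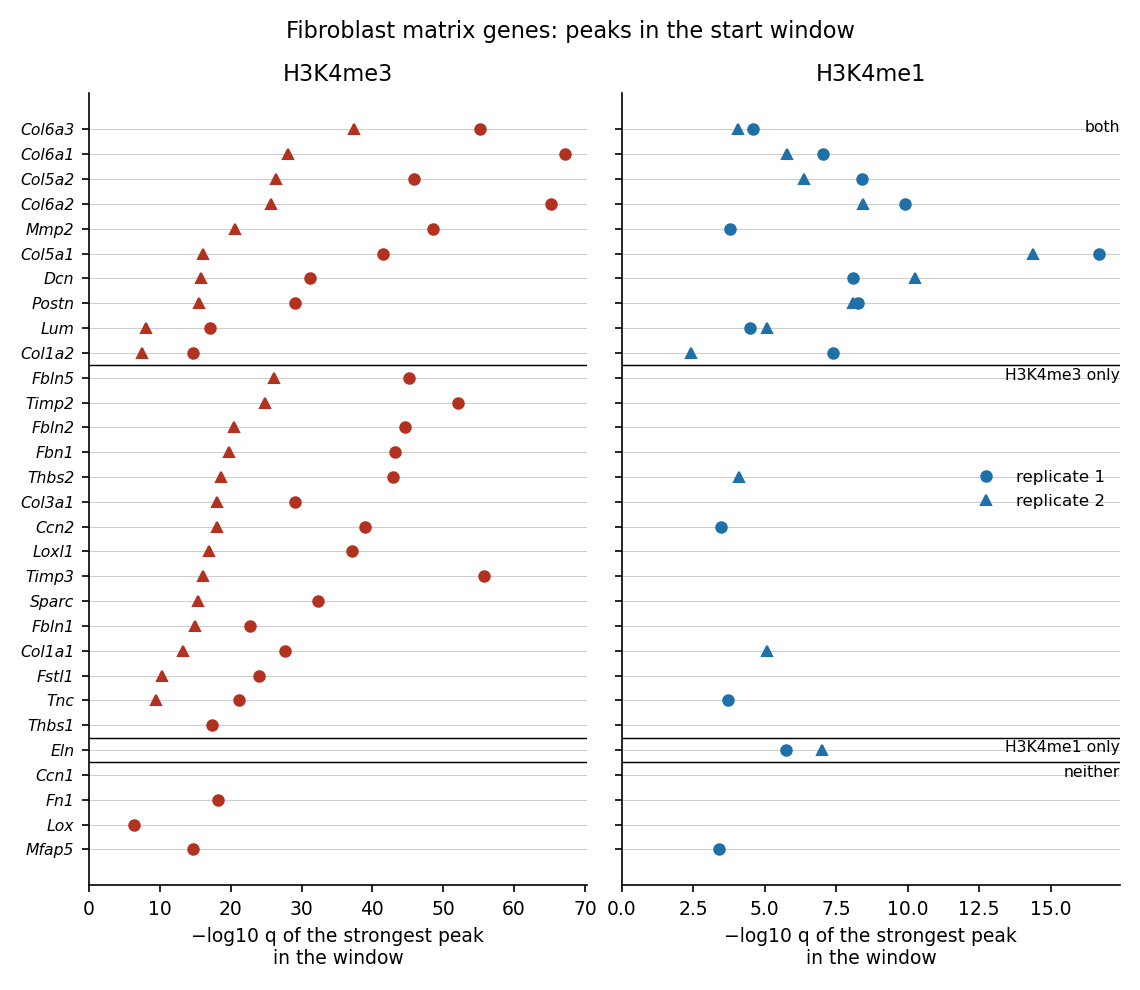
The −log10 q of the strongest H3K4me3 peak (left) and H3K4me1 peak (right) in the start window of 30 fibroblast matrix genes, by class, with a circle for replicate 1 and a triangle for replicate 2, and different horizontal scales. Classes rest on regions held by both libraries, so a gene can show a peak of a single library outside the class, as Fn1 does for H3K4me3.

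Of 28 mesenchymal transcription factors 18 had H3K4me3 only, 3 both, 4 H3K4me1 only and 3 neither. Egr1 (66.3 and 19.6), Tbx15 (48.4 and 19.1), Snai1 (46.1 and 19.3) and Prrx2 (43.1 and 23.5) were the strongest by H3K4me3 in replicate 1. Twist1 (25.0 and 8.79) and Twist2 (16.6 and 5.40), regulators of the mesenchymal state, had H3K4me3 only. Both marks were at Zeb2 (H3K4me3 29.0 and 14.8, H3K4me1 8.38 and 4.51), Prrx1 (16.6 and 6.50, 3.92 and 5.19) and Osr2 (32.2 and 13.7, 3.26 and 2.74). In Zeb2 the marks lay in the windows of different starts.

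H3K4me1 only was found at the transcription factor genes Ets1 (15.3 and 11.0), Nfib (7.43 and 7.26), Meox1 (6.13 and 3.32) and Runx2. Runx2, the osteoblast regulator, had an H3K4me3 peak of 14.3 in replicate 1 alone and an H3K4me1 peak of 5.57 in the window in replicate 2. Held H3K4me3 regions lay on Nfib, Runx2 and Ets1, the nearest 1767, 36346 and 59582 bp from a scored position, in that order. Their class thus holds for the scored positions alone. The nearest to Meox1 was 88922 bp away. The factors Tcf21, Six2 and Foxd1 had neither mark in either library's windows. The H3K4me3-only share of the factors was 64.3% against 50.1% of all genes, and H3K4me1 alone 14.3% against 2.29%. Ets1, Nfib and Meox1 have no listed start and were scored at both gene ends. Genes scored that way had H3K4me1 only more often, 177 of 4208 against 296 of 16457 scored at listed starts. The shares of all genes above mix both kinds.

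Of 26 surface proteins and receptors 18 had H3K4me3 only, 3 both, 2 H3K4me1 only and 3 neither. These were 69.2%, 11.5%, 7.69% and 11.5%, against 50.1%, 5.28%, 2.29% and 42.3% of all genes. Among the 21 with H3K4me3, 14.3% also had H3K4me1, against 9.54% of all genes with H3K4me3. Itga11 had the highest H3K4me3 −log10 q of the list in both libraries. The epidermal growth factor receptor Egfr (80.8 and 29.7) and the fibronectin receptor chain Itga5 (79.2 and 33.4) were next in replicate 1, and in replicate 2 Itga5 was above Egfr. The receptors of the TGF-beta pathway Tgfbr1 (25.6 and 12.4), Tgfbr2 (57.1 and 26.9) and Tgfbr3 (47.2 and 18.9) all had H3K4me3 only. Both marks were at the receptor Pdgfrb (H3K4me3 51.1 and 26.6, H3K4me1 10.3 and 3.86), the glycoprotein Thy1 (68.3 and 31.8, 5.61 and 9.02) and the integrin Itgav (35.2 and 20.1, with an H3K4me1 peak of 12.2 in the window in replicate 1 alone). At Thy1, which has no listed start, the marks lay in the windows of different gene ends. H3K4me1 only was at Ddr2 and the serine protease Fap (4.94 and 4.19), and neither at Pdgfra, S100a4 and Dpp4. Ddr2 was scored at its listed start, 170088944 on chromosome 1. A held H3K4me3 region, 19508 bp from that position, lay at the 5′ end of the gene as the gene table gives it (170110836), so its class holds for the listed start alone. Fap had its nearest held H3K4me3 region 1098 bp away.

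Of 19 contractile and cytoskeletal genes 14 had H3K4me3 only, 3 both, 1 H3K4me1 only and 1 neither. These were 73.7%, 15.8%, 5.26% and 5.26%, against 50.1%, 5.28%, 2.29% and 42.3% of all genes. The smooth muscle actin gene Acta2 (27.9 and 13.1), its partners Tagln (24.4 and 11.0) and Myl9 (18.1 and 8.17), and the intermediate filament Vim (26.8 and 12.8) had H3K4me3 only. Acta2 and Tagln had H3K4me1 peaks of 3.87 and 7.23, in that order, in replicate 2 alone. When H3K4me1 replicate 1 was left out, 8 of the 17 genes with H3K4me3 had both marks (47.1%, against 16.0% of all genes with H3K4me3), and without H3K4me1 replicate 2 it was 3. The lamin gene Lmna (H3K4me3 57.6 and 25.6, H3K4me1 5.70 and 5.58), the caldesmon gene Cald1 (46.9 and 23.2, 9.05 and 7.36) and the tubulin gene Tuba1a (74.1 and 45.7, 3.21 and 3.62) had both. Actb, which has no listed start, had H3K4me1 only (7.84 and 7.73) with a held H3K4me3 region 1288 bp from a gene end, and the calponin gene Cnn1 had neither.

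Lists of genes used by dividing and by all cells carried H3K4me3 with few exceptions. H3K4me3 was at 96.4% of cell cycle, 95.5% of housekeeping and 89.5% of H3K4 methylation machinery genes, against 55.4% of all genes. Of 28 cell cycle genes 25 had H3K4me3 only, 2 both (Cdk4 and Bub1) and 1, Ccnd2, neither. Of 22 housekeeping genes 18 had H3K4me3 only, 3 both (Eef1a1, B2m and Gusb) and 1, Ywhaz, neither. Of 19 genes of the H3K4 methylation machinery 17 had H3K4me3 only, the methyltransferases Kmt2a, Kmt2b, Kmt2c, Kmt2d, Setd1a and Setd1b among them. None had H3K4me1, against 7.57% of all genes. When H3K4me1 replicate 2 was left out, 3 of the 17 had both marks (17.6%), against 18.7% of all genes with H3K4me3. Ash2l and Ncoa6 had neither in the window, though a held H3K4me3 region lay on the gene or within 1 kb of it in all 19. Such a region was also found for all 28 cell cycle and all 22 housekeeping genes, Ccnd2 and Ywhaz included.

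Genes of 6 lists of other cell types, pooled without the adipogenic list, mostly carried neither mark. Over 85 genes of the haematopoietic, endothelial, epithelial, neural, myogenic and pluripotency lists, 14 (16.5%) had H3K4me3, 6 had H3K4me1 only and none had both, against 55.4%, 2.29% and 5.28% of all genes. No epithelial gene of 14 had H3K4me3, and Trp63, a basal epithelial regulator, had H3K4me1 only (7.98 and 5.66). Endothelial genes had H3K4me3 at Kdr (32.7 and 23.7) and Flt1 (34.1 and 16.6), receptors of vascular growth factors, and H3K4me1 only at Cdh5 (4.30 and 3.09) and Tek (3.97 and 6.93). Of 14 pluripotency genes 11 had neither, Pou5f1, Nanog and Sox2 among them, and 3, Esrrb, Tfcp2l1 and Klf2, had H3K4me3 only. H3K4me3 only was also at 3 of 15 haematopoietic genes (Cd4, Spi1 and Tal1). It was at 4 of 15 neural genes (Tubb3, Map2, Nes and Syt1) and 2 of 14 myogenic genes (Pax3 and Mef2c). The adipogenic list differed from the pool, with H3K4me3 at 7 of 12 genes (58.3%), against 55.4% of all genes. Of the 12, 6 had H3K4me3 only, among them Pparg and Cebpa, and Lpl had both. Fabp4 and Retn had H3K4me1 only, and Adipoq, Plin1 and Lep had neither.

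H3K4me1 inside genes, beyond the start windows, was found in 6357 of the 20665 genes (30.8%). Per 100 kb of gene it numbered 2.35 regions in genes with H3K4me3 only, 2.55 with both marks, 2.49 with H3K4me1 only and 1.11 with neither. Genes with neither mark were also shorter, with a median of 9.54 kb against 24.7, 22.5 and 19.1 kb. Within 50 kb of a start the median number of H3K4me1 regions was 2, 3, 3 and 0. These numbers include the region at the start that puts a gene in the class with both marks or with H3K4me1 only. Of the fibroblast lists, the transcription factors had 4.74 regions per 100 kb, the surface genes 4.41, the matrix genes 3.17 and the contractile genes 2.91, against 1.96 over all genes. Of the surface genes 23 of 26 (88.5%) had at least 1 such region, against 30.8% of all genes, with a median length of 78.4 kb against 17.5 kb. The genes with the most were the phosphodiesterase Pde4d (47), Auts2 (45) and the protein kinase Prkg1 (45), each longer than 1 Mb.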

How the data were processed

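The titles gave each sample's group and replicate. Per the submitters' processing notes the build was mm10, and Bowtie2, SAMtools 1.5, bedtools, MACS2, deepTools and HOMER 4.10 were named without a role. Peaks were called by the authors for 1 library at a time, per the file headers, with MACS2 2.1.0.20150731 at a q cutoff of 0.01, with no control library, allowing 1 fragment per position in WT H3K4me3 replicate 2 and 2 in the other 3 libraries. Each deposited list gives a pileup signal (unscaled fragments at the summit), the −log10 of the p-value and q-value, and the fold ratio over local background. They were used for ranks and filters within a list and to describe lists, and medians set side by side are not adjusted for depth. The same cutoff passes weaker sites in a deeper or better enriched library, so no peak does not mean no mark. The headers also gave the depth.

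With Python 3.11.15, numpy 2.4.6, pandas 2.3.3 and matplotlib 3.10.9, autosomal peaks of a mark were merged where they shared at least 1 bp. A merged region was held when both libraries had a peak in it. Genes came from RefSeq GRCm38.p6. Start and strand were listed for 16457 of 20665 autosomal protein-coding genes, with 20085 starts, and the other 4208 genes were scored at both gene ends. The interval code was tested on simulated data. Libraries were compared by exact two-sided permutation tests over 6 assignments.

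The 14 gene lists (278 entries) and the comparison itself were chosen with earlier results of these data known. Named genes are the 6 best ranked per class, the 5 longest regions per mark, the 3 genes with most inner H3K4me1 regions and members of the 4 fibroblast lists, and 1 gene that the rule picks is not reported here. Genes on chromosome X, such as Bgn, Timp1 and Flna, were not scored. Alternatives were a −log10 q of at least 10, lists of equal length, leaving out each library, adding X, other windows, flanks and overlaps, both gene ends for all genes, a replicate block and, chosen after seeing the data, genes with a listed start only.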

Additional observations from a re-analysis of the deposited data

Results flagged for a closer look

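The WT MLL4 libraries, which no comparison above uses, had 54 and 61 autosomal peaks in replicates 1 and 2. Of these, 13 and 13 lay on held regions of both histone marks, and every MLL4 peak on a held H3K4me1 region also lay on a held H3K4me3 region. Held H3K4me3 regions lay under 25 and 28 of the MLL4 peaks, and 29 and 33 touched a held region of neither mark. There is no control library to set these counts against, and their depth (5629819 and 5838305 fragments) limits how many MLL4 sites could be called. In start windows were 9 and 11 of the MLL4 peaks, inside genes 12 and 12, and in intergenic DNA 33 and 38.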

How the results depend on the processing

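The differences in median peak length and in the shares at starts, inside genes and in intergenic DNA kept their direction under every alternative tried for them. The exact permutation test cannot pass its threshold at this size, so no call could be lost. At −log10 q of at least 10 the log2 ratio of H3K4me3 to H3K4me1 reversed for peaks (0.79), bases (1.27) and the gap (−1.27), as did the differences in overlap (−0.58 points) and flanking (−1.48 points). With lists of equal length, where peak numbers are equal by construction, bases (0.41), gap (−0.42), overlap (−0.77 points) and flanking (−1.74 points) reversed. The held H3K4me1 regions numbered 3126 and 8398 under these settings, genes with both marks 30 and 93, genes with H3K4me1 only 45 and 109, and H3K4me3 regions with H3K4me1 on both sides 3 and 48. Both settings leave fewer H3K4me1 peaks. Leaving out each library in turn, when a region is held by the remaining library of that mark, gave 40316 to 60817 held H3K4me1 regions (highest without H3K4me1 replicate 2), 1099 to 2147 genes with both marks (1836 and 2147 without H3K4me1 replicates 1 and 2), 465 to 948 H3K4me3 regions with H3K4me1 on both sides, and differences of 5.94 to 14.0 points in overlap and 5.80 to 19.5 points in flanking. Genes with both marks numbered 601 with a window of 500 bp and 2234 with 2 kb, H3K4me3 regions with H3K4me1 on both sides 648 with a flank of 5 kb, and genes with H3K4me1 only 296 when only genes with a listed start were scored. Of the 18 genes ranked best by class, which were chosen for strong peaks and so had to pass a stricter cutoff, the class differed for 4 with a window of 500 bp (Hjurp, Pfdn1, Ms4a15 and Speer3), for Mau2 and Ttll12 with 2 kb, for Ttll12, Rassf5 and Hrh1 with both gene ends, and for Baalc, Pafah1b3 and Dctn6 when H3K4me3 replicate 2, H3K4me1 replicate 1 and H3K4me1 replicate 2, in that order, were left out. With a replicate block the differences were the same (log2 −1.84 for peaks) and the exact sign-flip p was 0.5 for each, the smallest that 2 pairs allow. Nothing shows that the numbers pair the libraries, and the deviations of the replicates from their group means in 2322 bins of 1 Mb had a correlation across marks of −0.0093.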
